A study of Mus musculus with 4 samples.

Results

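The heat shock proteins of the cytosol were examined as transcripts in mouse pancreatic cancer cells of the C57BL/6 strain, on 4 arrays of 1 sample each. The genes were 10 named chaperones, taken as every probe on the array whose gene name was Hspa1a, Hspa1b, Hspa8, Hspa4l, Hsph1, Hsp90aa1, Hsp90ab1, Dnajb1, Hspb1 or Hspb8. They had 20 of the 56605 probes and were 10 of 37074 gene names. Cells called K5 and cells called K6 each gave 1 DMSO control and 1 sample that had received 100 nM halofuginone for 24 hours. Halofuginone blocks prolyl-tRNA synthetase, an activity of the Eprs product, and uncharged tRNA is known to activate the integrated stress response. The labels name no other allele or agent in any group and do not say what sets K5, here called a line, apart from K6. No label gives separate cultures or animals as the origin of the samples, so the p-values speak only for these 4 samples. They weigh a change against the disagreement between K5 and K6, with a variance pooled over genes.

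Heat shock proteins keep other proteins folded. HSP70 proteins (Hspa genes) bind unfolded stretches in cycles of ATP hydrolysis that J-domain proteins such as Dnajb1 start and that HSP110 proteins (Hsph1, Hspa4l) reset by nucleotide exchange, while HSP90 proteins finish the folding of kinases and steroid receptors. Small heat shock proteins (Hspb1, Hspb8) hold unfolded proteins without using ATP. The stress-inducible genes are known targets of the transcription factor HSF1, which binds inverted repeats of the bases GAA, called heat shock elements, while Hspa8 and Hsp90ab1 are made in unstressed cells in large amounts.

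Promoter windows of 300 bases (250 before and 50 after an annotated start, from RefSeq on GRCm38.p6) were available for 7 of the 10 genes, all but Hspa8, Hsp90aa1 and Hsp90ab1. They are shown because Hspa1a and Hspa1b, the pair with the largest changes, share nearly the same sequence there. The windows of these 2 genes were identical at 296 of 300 bases. In the lines that follow, capitals mark the heat shock element letters GAANNTTC or TTCNNGAA, each of which reads the same on both strands. The 250 bases before the start of Hspa1a (chr17:34972157-34972406, minus strand), of Hspa1b (chr17:34959239-34959488, minus strand), 100 bases of Hspb1 (chr5:135887759-135887858, plus strand) and 60 bases of Hsph1 (chr5:149636337-149636396, minus strand) read as follows.
Hspa1a: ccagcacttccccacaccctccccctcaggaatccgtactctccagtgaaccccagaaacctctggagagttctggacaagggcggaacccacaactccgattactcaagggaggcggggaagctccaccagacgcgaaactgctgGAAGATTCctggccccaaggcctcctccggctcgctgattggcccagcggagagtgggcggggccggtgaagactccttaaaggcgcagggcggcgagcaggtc
Hspa1b: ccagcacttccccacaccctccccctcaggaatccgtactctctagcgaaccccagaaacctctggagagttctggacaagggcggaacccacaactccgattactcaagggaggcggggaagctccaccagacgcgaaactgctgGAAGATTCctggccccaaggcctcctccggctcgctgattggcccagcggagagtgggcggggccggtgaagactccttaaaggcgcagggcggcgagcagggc
Hspb1: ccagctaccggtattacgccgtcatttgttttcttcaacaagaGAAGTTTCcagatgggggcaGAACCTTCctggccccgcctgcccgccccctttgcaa
Hsph1: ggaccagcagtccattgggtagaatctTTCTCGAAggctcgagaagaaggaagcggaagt

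Of the 7 genes with a window, 5 held GAANNTTC or TTCNNGAA, as did 15.1% of all 32851 windows of this length in the table. In Hspa1a and in Hspa1b the single match, GAAGATTC, lay at the same place, from base -104 to base -97 before the start. Hspb1 held GAAGTTTC from base -117 to base -110 and GAACCTTC from base -97 to base -90. Hsph1 alone of the 7 held 3 units in a row, GAA and TTC in turn with NN between them, as did 0.603% of all windows. Such units arise where matches of both forms overlap, as in TTCTGGAAAGTTC, shown in capitals within bases 21 to 50 after the first of its 2 annotated starts (chr5:149636287-149636316, minus strand).
Hsph1 after the start: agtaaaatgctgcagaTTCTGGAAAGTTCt
Hspb8 held 1 match just after its start, and no match was found in the windows of Hspa4l and Dnajb1. The letters TGATGNAA, searched with their reverse TTNCATCA as the form bound by ATF4 together with a partner, were in 0 of the 7 genes' windows and in 3.97% of all windows. A match is only a match of letters, and binding was not measured.

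**Figure D1:**
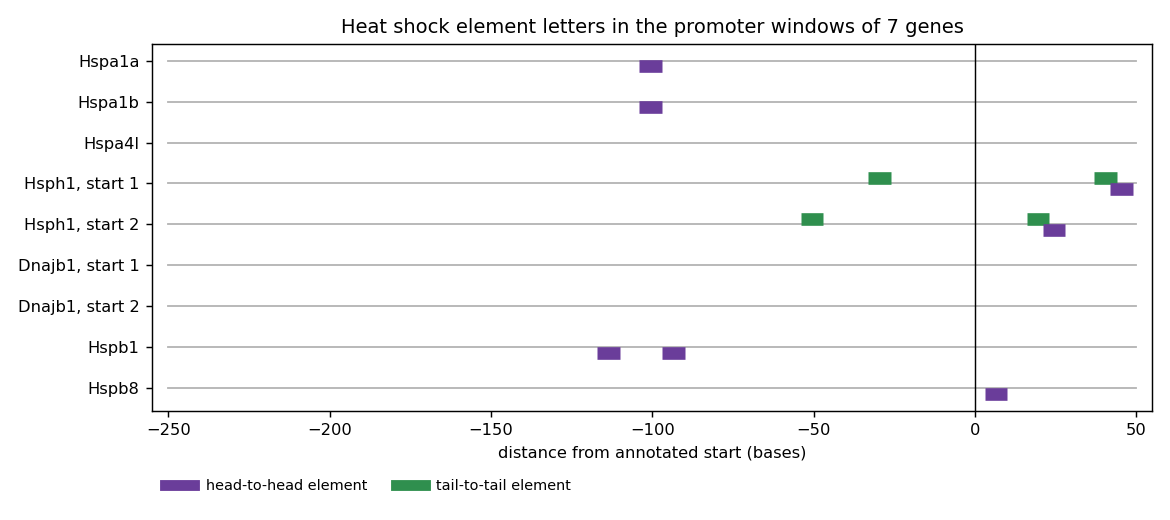
Positions of heat shock element letters in the promoter windows of 7 heat shock genes, with distance from the annotated start in bases on the horizontal axis and 1 line for each annotated start (Hsph1 and Dnajb1 have 2). Purple bars are head-to-head and green bars tail-to-tail elements, and the bars of Hspa1a and Hspa1b lie at the same place, from -104 to -97.

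Between 47.2% and 54.0% of the spots of an array were well above background, with more on both halofuginone arrays, and no spot was saturated. All 9 epithelial and ductal markers on the array (Krt7, Krt8, Krt18, Krt19, Epcam, Cdh1, Muc1, Sox9 and Cldn4) were well above background on all 4 arrays. Their summed signal, in multiples of each array's 75th percentile, was 917 and 703 in control K5 and K6 and 967 and 976 after halofuginone. Of 5 immune markers, 4 were (Ptprc, Cd14, Cd68 and Cd3e) and Adgre1 was on none. The summed immune signal, on the same scale, was 23.5 and 21 in control K5 and K6 and 7.72 and 4.80 after halofuginone. Of 7 fibroblast and stellate markers only Acta2 was well above background on all 4 arrays, with sums of 17.8 and 15.9 in controls and 11.7 and 9.32 after halofuginone. Of 5 acinar markers only Cela1 was, with sums of 3.54 and 2.16 in controls and 0.668 and 0.387 after halofuginone, and of 4 endothelial and 4 islet markers none was. The part of these markers in the results was not tested, and less RNA per cell cannot be told apart from fewer cells of a kind.

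A level is the log2 processed signal of the brightest probe of a gene, from which the log2 75th percentile of its array was subtracted. They are compared across arrays for 1 probe and not between probes. A change is the halofuginone value minus the control value on this log2 scale. Of the 10 genes, 8 could be tested. Hspb1 lacked an unflagged spot on 1 array and Hspb8 was well above background on no array. In the limma fit over both lines, with line as a block, 2 of these 8 genes fell, Hspa1a and Hspa1b, and 0 rose (1 of the others, Hsp90aa1, had a positive change at an unadjusted p under 0.05). Over all 19092 tested genes, 3.88% were called higher and 5.08% lower, 8.96% in all. The median change of the 8 genes was -0.52, with -0.54 in K5 and -0.67 in K6, against 0.01 over all tested genes. Both halofuginone arrays lay below both control arrays for 6 of the 8, which was so for 28.6% of all tested genes. For Hsp90aa1 both lay above, as for 30% of all, and for Hspa4l the groups overlapped and the lines read in opposite directions, as for 23.3% of all.

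**Figure D2:**
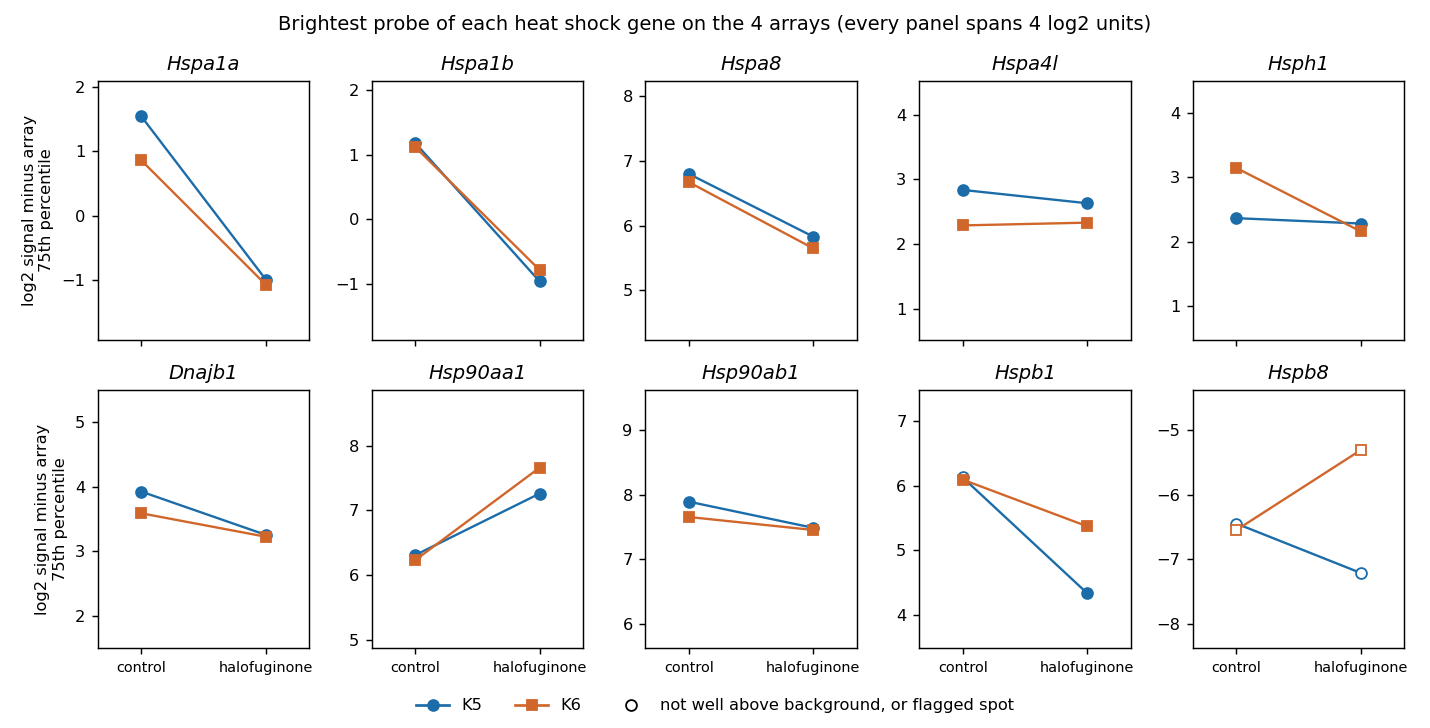
Level of the brightest probe of each of the 10 genes (log2 signal minus the array's 75th percentile, vertical axis) in control and halofuginone samples, with 1 point per array and a line joining the samples of K5 (circles) or K6 (squares). Every panel spans 4 log2 units, open points are not well above background or carry an outlier flag, and Hspa1a drops from 1.54 and 0.86 to -0.99 and -1.07 while Hsp90aa1 goes from 6.31 and 6.23 to 7.26 and 7.66.

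The largest changes were in the stress-inducible HSP70 genes. Hspa1a, read on mm9 chromosome 17 from 35106766 to 35106825, had levels of 1.54 and 0.86 in control K5 and K6 and of -0.99 and -1.07 after halofuginone. Both controls were high and both treated samples low, and the treated samples lay closer to each other than the controls did. As processed signal, before scaling, these were 2010 and 1612 in controls and 446 and 395 after halofuginone. Over the 2 lines Hspa1a fell by 2.22 in log2 units (SE 0.30, limma adjusted p = 0.042), with control above halofuginone 5.75-fold in K5 and 3.79-fold in K6. Hspa1b, the neighbouring copy, was read by a probe of 60 bases. The interval given for it, on chromosome 17 from 35093374 to 35093405, covers only part of that length. Hspa1b had levels of 1.18 and 1.12 in control K5 and K6 and of -0.96 and -0.78 after halofuginone. Its controls were nearly equal and its treated samples again did not overlap them. Hspa1b fell by 2.02 (SE 0.26, limma adjusted p = 0.042), which was 4.41-fold in K5 and 3.74-fold in K6.

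Both calls lie near the threshold. They were lost without the line as a block (limma adjusted p = 0.093 for Hspa1a and 0.090 for Hspa1b), without a filter on dim probes (0.067 for both) and with the scaling taken over probes detected on all 4 arrays (0.057 and 0.056). With outlier spots kept, a choice made after seeing the data, Hspa1a reached only 0.05001 and Hspa1b 0.04954. Over the 15 fits the adjusted p of Hspa1a ran from 0.000206 to 0.093, and its change was below 0 in all of them, from -2.35 to -2.07. Where a fit altered only the error, the filter or the adjustment, the change stayed at -2.22 and could not differ. The genes are close copies, and how far each probe also reads the other transcript was not tested. The longest run of letters that their probes share is 5 bases, which does not show whether either probe matches the other transcript. The log2 ratio of Hspa1a to Hspa1b differed by -0.38 between the arrays of K5 and by -0.02 between those of K6.

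Hspa8, the constitutive HSP70 of the cytosol (often called HSC70), did not pass the test but its probes gave similar readings. Its brightest probe, on chromosome 9 from 40612755 to 40613050, had levels of 6.80 and 6.67 in control K5 and K6 and of 5.83 and 5.65 after halofuginone. The treated samples lay below both controls by about the same distance in each line. The change was -1.0 (SE 0.26, 95% interval -1.71 to -0.29, limma adjusted p = 0.086), or 1.96-fold in K5 and 2.03-fold in K6. All 4 probes of Hspa8 were well above background on all arrays, and they read between -0.99 and -0.89 in K5 and between -1.24 and -1.02 in K6. The second-brightest, from 40611841 to 40611900, read -0.92 and -1.11. The ratio of Hspa1a to Hspa8 on the same array, which a scaling factor cannot move, changed by -1.55 in K5 and -0.90 in K6. That of Hspa1b to Hspa8 changed by -1.17 and -0.88. The inducible transcripts thus went further down than the constitutive one in both lines, a difference that was not tested.

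**Figure D3:**
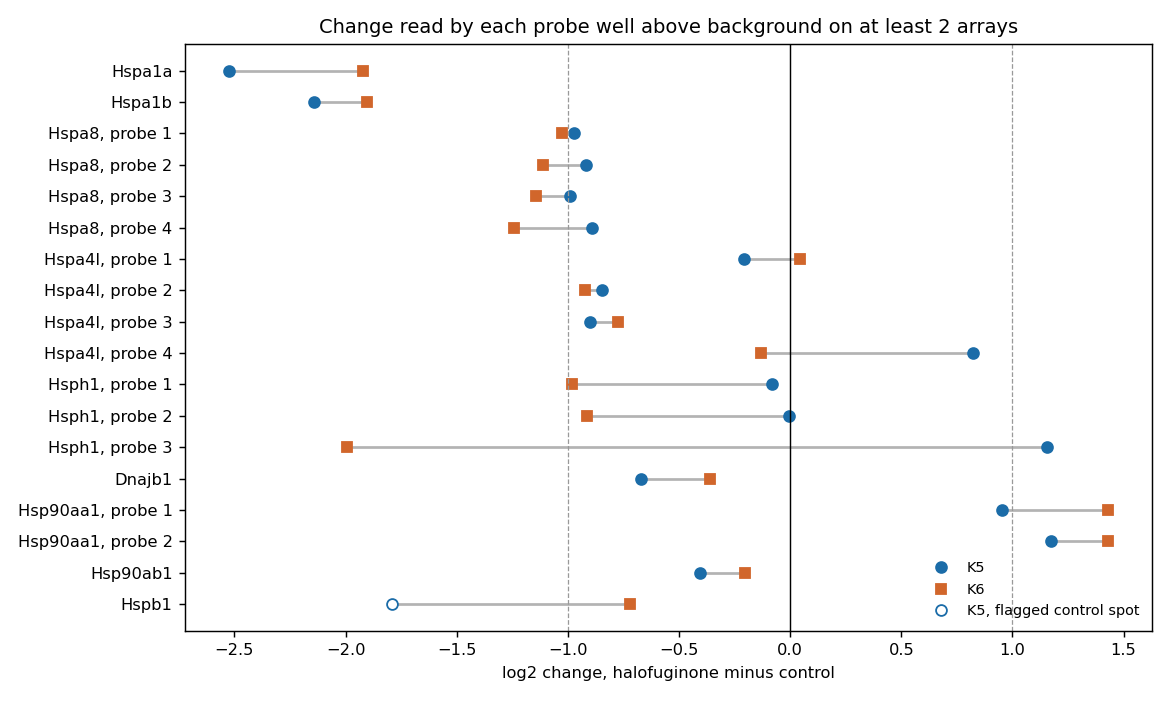
Log2 change after halofuginone (horizontal axis) in K5 (circles) and K6 (squares) for each of the 18 probes of the heat shock genes that were well above background on at least 2 arrays, with the probes of a gene ordered from bright to dim and dashed lines at 2-fold. The 4 probes of Hspa8 lie close together near -1.0, whereas those of Hspa4l disagree. For Hsph1 the dimmest probe departs from the brighter ones, which lie close together within each line. The open circle of Hspb1 rests on a flagged control spot.

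The HSP90 genes differed from each other. Hsp90aa1, which encodes the stress-inducible form HSP90 alpha, was read on chromosome 12 from 111932511 to 111932796 with levels of 6.31 and 6.23 in control K5 and K6 and of 7.26 and 7.66 after halofuginone. Both treated samples were above both controls, and further so in K6. The change was 1.19 (SE 0.28, 95% interval 0.41 to 1.98, limma adjusted p = 0.077), or 1.93-fold in K5 and 2.70-fold in K6, and did not pass. A dimmer probe of Hsp90aa1, from 111933318 to 111933377, read 1.17 and 1.43, and a probe for another transcript, from 111929938 to 111929997, was well above background on no array.

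Hsp90ab1, which encodes the constitutive form HSP90 beta, was read on chromosome 17 from 45704788 to 45704847 with levels of 7.89 and 7.65 in control K5 and K6 and of 7.49 and 7.45 after halofuginone. The treated samples were slightly below the controls. The change of -0.30 (SE 0.26, limma adjusted p = 0.46) has a 95% interval from -1.03 to 0.42, which holds a decrease of up to 1.03 and an increase of up to 0.42. On the same array the ratio of Hsp90aa1 to Hsp90ab1 was 2.56-fold higher after halofuginone in K5 and 3.10-fold higher in K6, and that of Hsp90aa1 to Hspa8 was 3.79-fold and 5.49-fold higher. Neither ratio was tested. Hsp90aa1 was called higher in 3 of 15 fits, those with normexp background correction (limma adjusted p = 0.0055), with the filter on all 4 arrays (0.025) and with a variance trend (0.015). The same 3 called Hspa8 lower (0.014, 0.035 and 0.016).

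Dnajb1, the J-domain partner of inducible HSP70, was read on chromosome 8 from 86135660 to 86135719 with levels of 3.92 and 3.59 in control K5 and K6 and of 3.25 and 3.23 after halofuginone. The treated samples were close to each other and below both controls. Its change was -0.52 (SE 0.27, 95% interval -1.26 to 0.23, limma adjusted p = 0.26) and did not pass. On the same arrays the ratio of Hspa1b to Dnajb1 changed by -1.47 in K5 and -1.54 in K6, so Hspa1b moved further than its J-domain partner by a like amount in each line. This difference was not tested and holds for Hspa1b only. The ratio of Hspa1a to Hspa1b changed by -0.38 in K5 and -0.02 in K6.

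The HSP110 genes gave readings that depended on the probe or the line. Hsph1, which encodes HSP105, was read on chromosome 5 from 150419744 to 150419803 with levels of 2.37 and 3.14 in control K5 and K6 and of 2.28 and 2.16 after halofuginone. The control of K6 stood above the other 3 samples. The change was -0.53 (SE 0.34, limma adjusted p = 0.34), made up of -0.08 in K5 and -0.98 in K6. A second probe, from 150420110 to 150420169, repeated this with -0.01 and -0.91. A dim one, from 150434622 to 150434681, read 1.16 and -2.0 and was well above background on 2 of 4 arrays.

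Hspa4l, which encodes another HSP110 relative known as APG-1, had 4 probes on chromosome 3, all well above background on every array. The brightest, from 40594227 to 40594286, had levels of 2.84 and 2.29 in control K5 and K6 and of 2.63 and 2.33 after halofuginone. These groups overlapped, and the change was -0.08 (SE 0.26, 95% interval -0.81 to 0.65, limma adjusted p = 0.85). Probes from 40593366 to 40593425 and from 40589298 to 40590682 both read lower, with -0.85 and -0.90 in K5 and -0.92 and -0.78 in K6. Tested singly, neither passed (limma adjusted p = 0.11 and 0.12 over 28262 probes). The dimmest probe, from 40562457 to 40562516, was designed to another transcript and read 0.82 and -0.13. The probes of Hspa4l therefore differ in the size of the change, and within a line also in its direction.

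Of the small heat shock proteins, Hspb1 (HSP25 in mouse, HSP27 in human) was bright on all arrays, and its spot on the control K5 array carried an outlier flag. Read on chromosome 5 from 136365366 to 136365425, its level in K6 was 6.09 in control and 5.37 after halofuginone, 1.65-fold lower. In K5 it was 4.34 after halofuginone and 6.13 in the flagged control spot, 3.46-fold lower if that spot is kept. The flagged value lay close to the control of K6. With flagged spots kept, a choice made after seeing the data, the change was -1.26 (SE 0.37, limma adjusted p = 0.12) and did not pass. Hspb8, a small heat shock protein that works with an HSP70 co-factor, was read on chromosome 5 from 116859063 to 116859122 and was well above background on no array, so no change is given.

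Counting single probes, 18 of 20 passed the background flag on 2 or more arrays. Of these, 13 read lower in both lines, 2 read higher in both (both of Hsp90aa1) and 3 read in opposite directions. Hspa8 and Hspa4l each had 4 of these probes and Hsph1 had 3, and the shares over all probes were not counted. Tested singly, the 17 without a flagged spot gave 2 lower calls, Hspa1a and Hspa1b (limma adjusted p = 0.049 for each), and 0 higher (the 2 Hsp90aa1 probes had adjusted p = 0.083 and 0.068). Among all 28262 probes tested this way, 2.57% were called lower and 2.03% higher. At a fold of at least 2 within a line, 2 of the 8 genes were lower in K5 and 3 in K6, against 15.1% and 16.7% of all tested genes. None was higher in K5 and 1 in K6, Hsp90aa1, against 14.2% and 16.4%.

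No difference between the lines was called in these genes. In the limma fit 0 of the 8 differed between K6 and K5, and 0 did at an unadjusted p under 0.05. Over all tested genes 0.0576% were called higher and 0.115% lower in K6. The K6 minus K5 differences ran from -0.42 for Hspa4l to 0.33 for Hsph1, with limma adjusted p from 0.49 to 0.93. In control samples alone, Hsph1 was 0.78 higher and Hspa1a 0.68 lower in K6 than in K5. These control differences rest on 1 array each.

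The regulators and partners of these genes came from 10 lists with 69 tested genes. Of these, 2 rose and 0 fell, where 3.88% and 5.08% of all tested genes did, and the median change was 0.56 against 0.01 over all. Among heat shock factors and their binding protein 0 of 4 passed, with a median change of 0.50. Hsf1, the master regulator of the heat shock response, had levels of 1.05 and 1.41 in control K5 and K6 and of 1.11 and 1.56 after halofuginone, a change of 0.10 (SE 0.26, 95% interval -0.62 to 0.81, limma adjusted p = 0.81). Hsf2 had a change of 0.20 and Hsf4 of 1.28 (limma adjusted p = 0.084), though only 1 of its 2 control spots was well above background. The activity of these proteins was not measured.

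Among the other cytosolic HSP70 and HSP110 genes 0 of 4 passed (median change 0.33). Hspa4, the ubiquitous HSP110 relative known as APG-2, had a change of 1.07 (SE 0.26, limma adjusted p = 0.077), and Hspa2, an HSP70 best known from the testis, of -1.53 (SE 0.34, limma adjusted p = 0.069). Of 11 cytosolic J-domain proteins 1 passed (median change 0.88). Dnajc21, a J-domain protein of ribosome assembly, had levels of 2.04 and 1.37 in control K5 and K6 and of 3.63 and 3.05 after halofuginone. It rose by 1.64 (SE 0.26, limma adjusted p = 0.047). Dnajb4, a close relative of Dnajb1, had the lowest change of that list at -0.53. In this list 8 of 11 genes read higher in each line, 1 lower in each and 2, Dnajb4 among them, in opposite directions. Over all tested genes 23.3% read in opposite directions, and the share higher in both lines was not counted.

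The co-factors that act on HSP70 (Bag proteins, Hspbp1, St13, Stub1) had a median change of 0.08 and 0 of 9 passed, from -0.68 for Hspbp1 to 0.62 for St13. Among HSP90 co-chaperones 0 of 13 passed (median 0.45), and 9 read higher in both lines. The largest was Ppid, the cyclophilin that binds HSP90, at 1.18 (SE 0.27, limma adjusted p = 0.072), and the lowest was the phosphatase Ppp5c at -0.43. The chaperonin TRiC, a ring that folds actin and tubulin, had 8 subunits that all read higher in both lines, and 0 passed (median 0.70). Among them Cct6a had the largest change, 1.21 (SE 0.26, limma adjusted p = 0.064), and Tcp1 the smallest, 0.33. For these lists too, the share of all tested genes that read higher in both lines was not counted. Prefoldin, which hands nascent actin and tubulin to TRiC, had 0 of 6 past the threshold (median 0.65), from -0.84 for Pfdn5 to 1.24 for Pfdn4.

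The other small heat shock proteins were the list whose median lay lowest. Only 3 of 7 were tested, 0 passed, and all 3 read lower in both lines (median change -1.53). The share of all tested genes lower in both lines was not counted. Hspb6, known from muscle, had levels of 1.48 and 1.27 in control K5 and K6 and of 0.29 and -0.64 after halofuginone, a change of -1.55 (SE 0.31, limma adjusted p = 0.060). Hspb9 had -0.62. In the mitochondrion 1 of 7 rose (median 0.40). Hspa9, the mitochondrial HSP70 known as mortalin, had levels of 4.33 and 4.04 in control K5 and K6 and of 6.29 and 6.67 after halofuginone. It rose by 2.29 (SE 0.31, limma adjusted p = 0.042), and Trap1, the mitochondrial HSP90, had a change of -0.25. In the endoplasmic reticulum 0 of 4 passed (median 0.45), with Hspa5, the HSP70 known as BiP, at 1.08 (limma adjusted p = 0.096), Hsp90b1 at -0.08 and Hspa13 at -0.83. The calls of Dnajc21 and Hspa9, like those above, lie near the threshold, and both were lost without the line as a block, without a filter, with scaling on probes detected on all 4 arrays and with outlier spots kept.

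**Figure D4:**
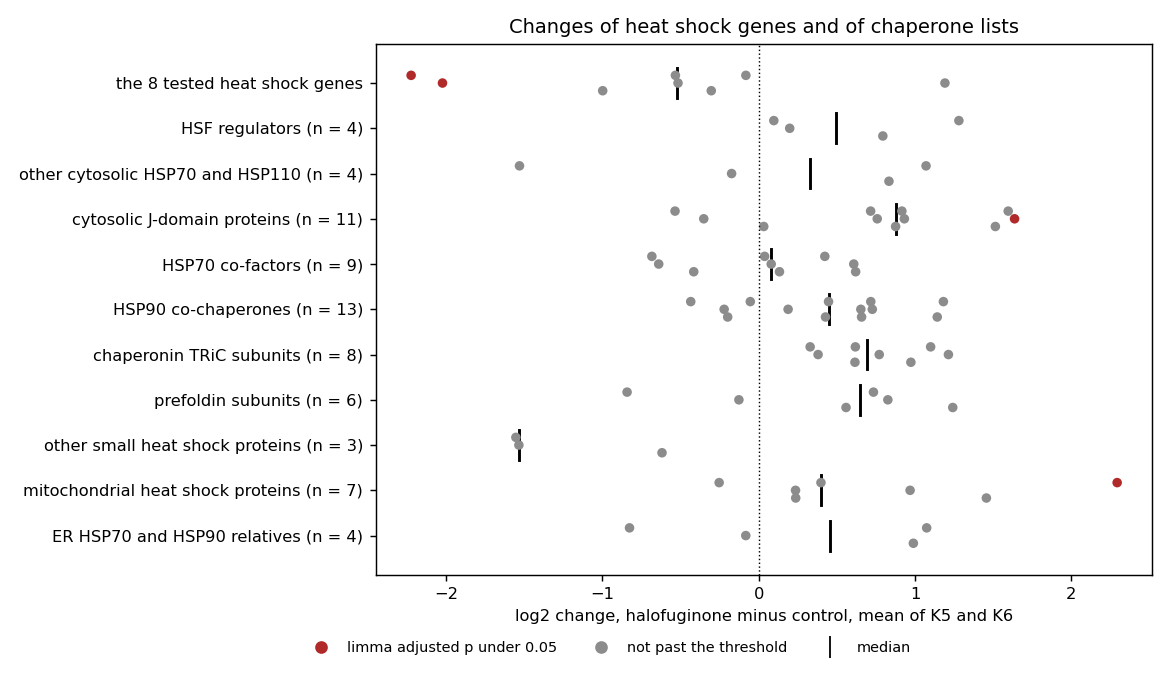
Log2 change after halofuginone, mean of K5 and K6 (horizontal axis), for the 8 tested heat shock genes and for 10 lists of regulators, partners and relatives, with 1 point per gene, red where the limma adjusted p was under 0.05, and a bar at the median. The red points are Hspa1a and Hspa1b on the left and Dnajc21 and Hspa9 on the right, and the 8 TRiC subunits all lie to the right of 0.

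The tested genes whose profile over the 4 arrays, centred on its own mean, lay nearest to that of Hspa1b were Wbscr27, Cyp51 and Morn2, at Euclidean distances of 0.12, 0.13 and 0.14 log2 units. Cyp51, a sterol demethylase of cholesterol synthesis, fell by 1.92 (SE 0.26, limma adjusted p = 0.043). Nearest to Hsp90aa1 were Picalm, Mcts2 and Tnrc6c, at 0.03, 0.04 and 0.06. Picalm, an adaptor of clathrin-coated pits, had a change of 1.22 (SE 0.29, limma adjusted p = 0.076). With 4 arrays many genes can share a profile.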

How the data were processed

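Total RNA was measured on 1-colour Agilent arrays with Cy3, per the labels' protocols. Per the file headers, the intensity of each spot came from Feature Extraction 10.7.1.1 (9.5.1.1 per the submitters' processing notes) as a background-subtracted, detrended signal, not normalized between arrays. The deposited flags, other values per spot, mark spots well above background, saturated spots and outliers. A deposited table of the authors' intensity values, made by steps that no label or header records, was an alternative.

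Control and outlier spots were left out (301 probes lost), spots of a probe averaged, and log2 values taken minus the array's 75th percentile over all spots other than controls. A gene was its brightest probe, tested if well above background on at least 2 arrays. limma 3.58.1 in R 4.3.3 (lmFit, eBayes; 1 residual and 2.97 prior degrees of freedom, so each SE leans on a variance pooled over genes) had line as a block and Benjamini-Hochberg adjustment over 19092 genes, threshold 0.05. A gene whose lines move in opposite directions can hardly pass. The numbers 5 and 6 name the same cells and pair the samples (r = 0.50 across genes between the line differences of control and treated samples). Steps were tested on simulated data. No count of molecules underlies an array. The number of arrays limits precision, and so do the noise of a spot and signal near background. No mm9 annotation was used.

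The genes and lists were chosen with earlier results of these data known. Outside the 10 genes, the text names Hsf1, Hsf2, Hspa5 and Hsp90b1, each list's largest rise and fall, those past the threshold, and the 3 nearest profiles. 1 immune marker is not reported here and was left out of its list.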

Additional observations from a re-analysis of the deposited data

Results flagged for a closer look

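Of the tested genes whose changes the report gives, 3 read in opposite directions in the lines. Subtracting the change in K5 from that in K6 gave 1.11 for Dnajb4 (-1.09 in K5 and 0.02 in K6), -0.53 for Hsp90b1 (0.18 and -0.35) and 0.25 for Hspa4l (-0.21 and 0.04). Each line has 1 array per condition, so these differences were not tested. Hspa4l is read here by its brightest probe alone. Dimmer probes read -0.85 and -0.92, and -0.90 and -0.78, in K5 and K6. The dimmest, designed to another transcript, read 0.82 and -0.13. Changes of opposite sign were read for 23.3% of all tested genes.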

How the results depend on the processing

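The 8 tested heat shock genes kept the direction of their change in all 112 combinations of gene and alternative setting. In many of these the direction was bound to stay. The change was exactly that of the main fit without the block, with another filter or none and with 1 common floor. It was also the same with single probes, a variance trend or outlier spots kept. With 1 line left out, which leaves values with no test, Hspa4l changed sign (0.04 without K5) and the others, with Hspb1, did not. Of the 112, 7 lost a call and 6 gained one. The count of lower genes, 2, became 0 without the replicate block (the unpaired fit) and 0 without a filter. It also became 0 with scaling on probes detected on all 4 arrays. In each of these fits 4 genes of either direction, with Hsp90aa1 (higher) among them, had an unadjusted p under 0.05 in limma. The count of lower genes became 1 with outlier spots kept, where Hspa1b stayed called. The count of higher genes, 0, became 1 with normexp, 1 with the filter on all 4 arrays and 1 with a variance trend. In each of these fits the count of lower genes became 3. No setting called a difference between lines in these genes.

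Over all genes, 740 were higher and 970 lower. Without the block, with scaling on probes detected on all 4 arrays and without a filter limma called 0 (4491, 6482 and 15048 at an unadjusted p under 0.05). Other counts were 2597 and 2859 with normexp, 1909 and 2103 with the filter on all 4 arrays, 2041 and 2163 with a trend, 355 and 560 with p-values adjusted over single probes, 305 and 483 with outlier spots kept, 992 and 1499 with median centring and 1098 and 1460 with 1 common floor. In the partner lists, 2 higher and 0 lower became 18 and 5 with normexp, 16 and 3 with the filter on all 4 arrays, 20 and 4 with a trend, 5 and 3 with 1 floor and 4 and 2 with median centring. They became 4 and 0 with the percentile taken over probes, 1 and 0 with single probes, and 0 and 0 with outlier spots kept, without the block, without a filter and with scaling on probes detected on all 4 arrays. That last scaling put the median change of all genes at -0.11, against 0.01. The fits with outlier spots kept and with the percentile over probes were chosen after seeing the data. With 1 line left out no test was possible, since no residual degree of freedom remains.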
